A study of Arabidopsis thaliana with 6 samples.

Results

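Receptor-like kinases sit in the plasma membrane with a sensing domain outside the cell and a protein kinase domain inside it. The 7 genes described here are those that were picked from the 531 genes the study listed as having more RNA in the mrg1 mrg2 mutant, and they are 7 of 552 listed genes in all. They are the cysteine-rich receptor-like kinase genes CRK8, CRK23, CRK24 and CRK27, the lectin receptor kinase gene LECRK51, the PR5-like receptor kinase gene PR5K, and AT5G38240, which the table names only as a protein kinase family gene. They were chosen by name among genes already selected for this difference, so their fold changes are given as a description, without a test. All 7 had a row in the table and none was left out for low counts.

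The mrg1 mrg2 mutant was in the Columbia-0 ecotype and was compared with Col-0 wild type; the labels do not name its alleles. Seeds of both genotypes were kept at 4 °C for 3 days and grown on soil at 22 °C in long days (16 h light, 8 h dark). Leaves and stem were taken from 12-day-old seedlings at zeitgeber time 8 h. Each genotype gave 3 libraries, 1 from each of 3 independent experiments, and libraries with the same replicate number were taken as pairs. MRG1 and MRG2 are chromodomain proteins that bind histone H3 methylated at lysine 36 and work with histone acetyltransferases. MRG2 had raw counts of 188, 111 and 96 in mrg1 mrg2 and of 437, 380 and 403 in Col-0, lower in each mutant library, and MRG1 was not listed. The tables hold only genes listed as differing, so the total count of each library is unknown here. Of 6 root marker genes, 0 were listed, so their levels in these aerial samples are not known.

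Cysteine-rich receptor-like kinases carry repeats of a secreted cysteine-rich domain (DUF26) and are a large Arabidopsis family, many of whose genes respond to pathogens, salicylic acid and reactive oxygen. L-type lectin receptor kinases carry a domain related to legume lectins, and several act in immunity. PR5K carries a domain related to the pathogenesis-related thaumatin-like protein PR5. Kinases of these families are studied as sensors at the cell surface that start defence and stress signalling, and the ligands of most of them are unknown.

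All 7 genes had more reads in each mrg1 mrg2 library than in any Col-0 library. Ratios of mean normalized counts ran from 1.74 for CRK24 to 10.8 for LECRK51, and the other 6 genes lay between 1.74 and 2.98. The median over the 7 genes was 1.09 on the log2 scale, beside 1.08 over all 531 higher genes. The authors listed 2.31% of an inferred 22995 tested genes as higher and 0.0913% as lower, and among the higher ones the libraries of the genotypes did not overlap for 99.8%. The 7 of 7 therefore repeat what the listing chose. A log2 ratio of at least 1 was reached by 5 of the 7 genes, beside 57.8% of the higher genes. In the authors' deposited table the adjusted p of the 7 genes ran from 3.58e-05 for PR5K to 0.0242 for LECRK51, where the largest listed value was 0.0497 and the smallest listed higher change was 1.51-fold. Genes just outside these limits have no values here. All 7 ratios were above 1 with the authors' scaling and with equal size factors, but with size factors centred on the listed genes, which are nearly all higher, the log2 ratio was -0.21 for CRK24 and -0.19 for AT5G38240. In whole aerial tissue, more RNA per cell and more cells of a type that holds the RNA cannot be told apart.

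**Figure D1:**
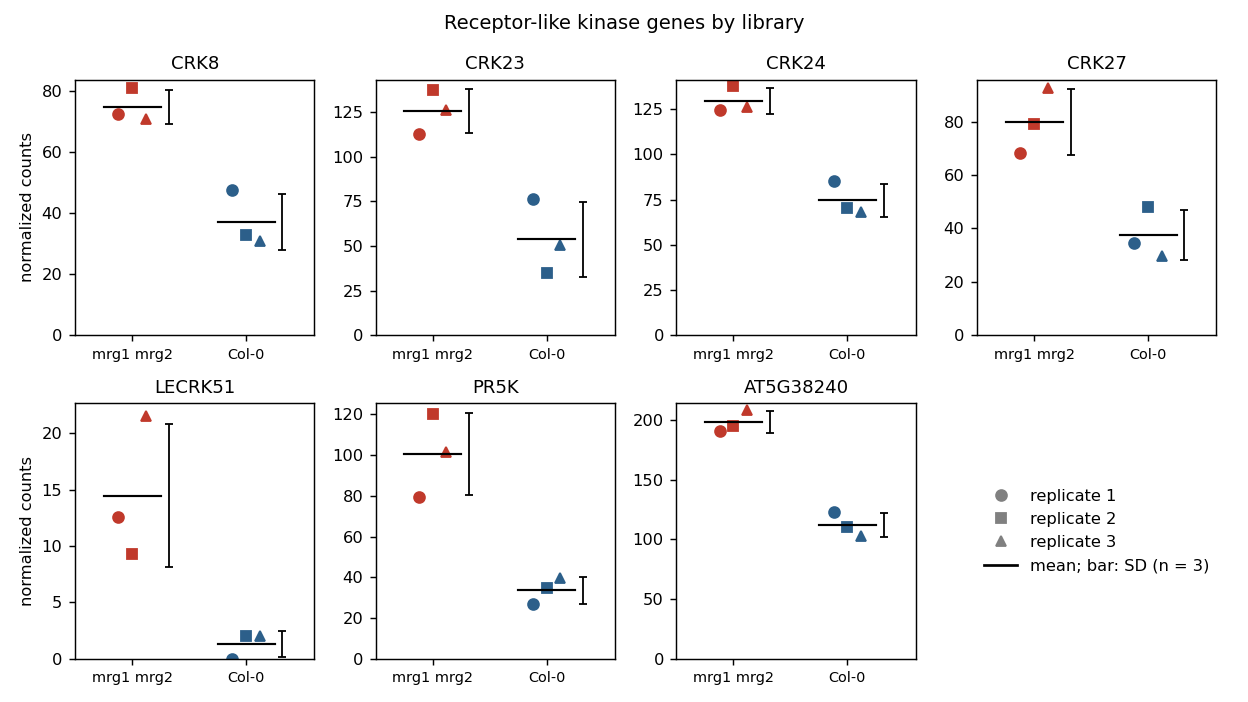
Normalized counts (raw counts divided by size factors, linear axes from 0) of the 7 kinase genes in the 3 mrg1 mrg2 and 3 Col-0 libraries. Points are libraries, with a shape for each replicate number, horizontal lines are means and bars are SD. No mutant point is at or below a Col-0 point, and the Col-0 points of CRK23 spread the most of the cysteine-rich genes.

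Positions of genes are from the RefSeq annotation of TAIR10.1. Among the cysteine-rich kinases, CRK23 (AT4G23310, chromosome 4, 12185369 to 12188961, plus strand, 6 exons in its longest transcript) had 108, 148 and 123 raw reads in mrg1 mrg2 replicates 1, 2 and 3, against 77, 34 and 51 in Col-0. Normalized, this was 126 ± 12.3 in mrg1 mrg2 and 53.8 ± 20.9 in Col-0 (SD, n = 3 each), a 2.34-fold ratio. Its Col-0 libraries spread more than those of the other cysteine-rich genes, with a variance 8.13 times the mean, where counting alone gives a ratio near 1. Col-0 replicate 1 was the high library of the 3. The log2 ratio was 1.56 without Col-0 replicate 1 and 0.99 without Col-0 replicate 2.

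CRK24 (AT4G23320, chromosome 4, 12189089 to 12191704, minus strand) is the next gene along. It had 119, 148 and 123 raw reads in mrg1 mrg2, against 86, 69 and 69 in Col-0. Its normalized counts were 129.5 ± 7.08 in mrg1 mrg2 and 74.6 ± 9.10 in Col-0 (SD, n = 3 each), the smallest ratio of the 7 genes at 1.74. The genotypes stayed apart: the lowest mutant library was 1.47 times the highest Col-0 library. CRK23 and CRK24 run towards each other and their annotated ends lie 127 bases apart. The libraries were stranded, per the labels, but the strand setting of the counting is unknown, so reads of the 2 genes near their shared end may not be told apart.

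CRK27 (AT4G21230, chromosome 4, 11319139 to 11321679, minus strand, 7 exons) had 65, 85 and 90 raw reads in mrg1 mrg2, against 35, 47 and 30 in Col-0. The normalized means were 79.9 ± 12.2 in mrg1 mrg2 and 37.4 ± 9.44 in Col-0 (SD, n = 3 each), a 2.13-fold ratio. Here Col-0 replicate 2, not replicate 1, was the highest wild-type library.

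CRK8 (AT4G23160, chromosome 4, 12129485 to 12134209, plus strand) had 69, 87 and 69 raw reads in mrg1 mrg2, against 48, 32 and 31 in Col-0. The normalized means were 74.7 ± 5.44 in mrg1 mrg2 and 36.9 ± 9.17 in Col-0 (SD, n = 3 each), a 2.02-fold ratio. Col-0 replicate 1 stood above the other Col-0 libraries, as it did for CRK23, CRK24 and AT5G38240. The RefSeq gene model of CRK8 has 3 transcripts, and 2 of them open with an exon of 1661 bases that lies before the start of the remaining one. Only that one, of 2049 exon bases, encodes a protein with the kinase catalytic motif (682 residues). The reading frame of the other 2 gives 1043 residues without it. The deposited count is 1 number per gene, so it does not show which of these transcripts the reads came from.

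LECRK51 (AT1G70110, chromosome 1, 26406238 to 26408343, minus strand, 2 exons) had few reads in either genotype. It had 12, 10 and 21 raw reads in mrg1 mrg2, against 0, 2 and 2 in Col-0. The normalized means were 14.5 ± 6.36 in mrg1 mrg2 and 1.34 ± 1.16 in Col-0 (SD, n = 3 each). With 43 reads against 4 in all, the 10.8-fold ratio has an exact 95% interval of 3.90 to 41.2 that covers counting error only. The ratio without Col-0 replicate 1, the library with 0 reads, was 2.85 on the log2 scale, against 3.43 with all libraries. LECRK51 ranked 25 among the 531 higher genes by ratio and 518 by Col-0 level.

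PR5K (AT5G38280, chromosome 5, 15293048 to 15297611, minus strand) had the largest ratio of the 7 genes after LECRK51, and ranked 121 among the 531 higher genes. It had 76, 129 and 99 raw reads in mrg1 mrg2, against 27, 34 and 40 in Col-0. Normalized counts were 100.4 ± 20.2 in mrg1 mrg2 and 33.7 ± 6.52 in Col-0 (SD, n = 3 each), a 2.98-fold ratio with a counting interval of 2.39 to 3.80 (exact, 95%). The lowest mutant library was 2.01 times the highest Col-0 library.

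AT5G38240 (chromosome 5, 15276929 to 15279384, minus strand) had the most reads of the 7 genes, 182, 210 and 203 in mrg1 mrg2 and 124, 108 and 104 in Col-0. Its normalized counts of 198 ± 9.32 in mrg1 mrg2 and 112 ± 9.92 in Col-0 (SD, n = 3 each) gave a 1.77-fold ratio. The spread of its libraries was the smallest of the 7 relative to the mean, at 4.70% in mrg1 mrg2 and 8.86% in Col-0.

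**Figure D2:**
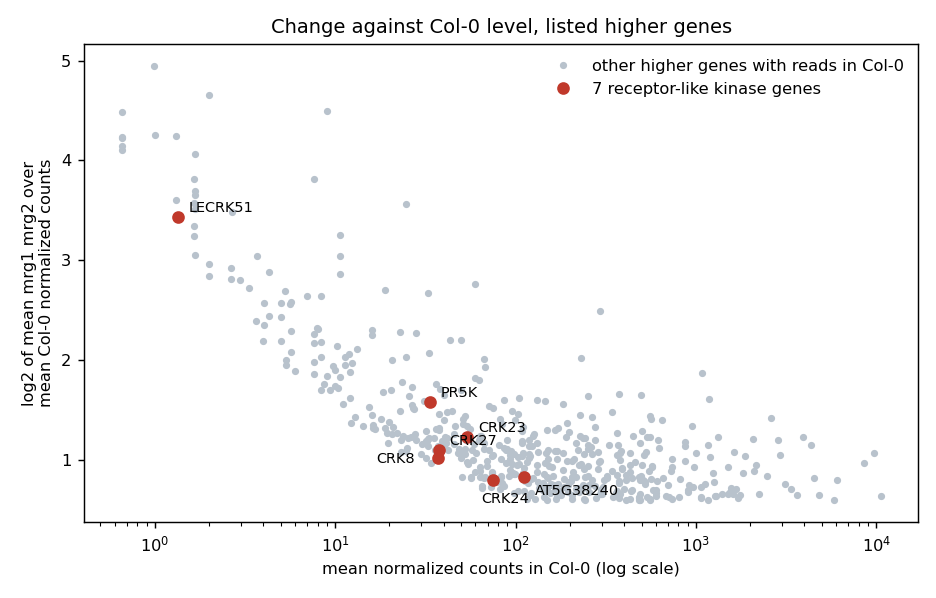
Log2 ratio of mean mrg1 mrg2 over mean Col-0 normalized counts (vertical axis) against the mean Col-0 normalized count (log axis) for the listed higher genes that had reads in Col-0. The 7 kinase genes are labelled; 6 lie at Col-0 means of 33.7 to 112 with log2 ratios of 0.80 to 1.58, and LECRK51 lies at 1.34 with a log2 ratio of 3.43.

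Levels between genes were compared per kilobase of annotated exon. In mrg1 mrg2 the order of normalized counts per kilobase was AT5G38240 at 85.9, CRK24 at 63.8, CRK23 at 41.1, CRK27 at 39.3, PR5K at 37.5, CRK8 at 18.5 and LECRK51 at 7.16. CRK23, CRK27 and PR5K overlapped in the mutant libraries, and the other neighbours in the order did not. In Col-0 the order was AT5G38240 at 48.5, CRK24 at 36.7, CRK27 at 18.4, CRK23 at 17.6, PR5K at 12.6, CRK8 at 9.15 and LECRK51 at 0.663. The Col-0 libraries of AT5G38240 (44.7 to 53.2 per kilobase) lay above those of CRK24 (33.7 to 41.9), which lay above the rest. CRK27 and CRK23 overlapped, as did CRK23 and PR5K, and PR5K and CRK8. The level of CRK8 per kilobase rests on 4.04 kb of exon, which includes the long first exon of the transcripts without the kinase motif.

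The genes differed in how the ratio held across the 3 experiments. Within each experiment all 7 genes were higher in mrg1 mrg2, as were 100% of the listed higher genes. CRK23 varied the most of the 6 genes with reads in every library: its ratio of mrg1 mrg2 to Col-0 was 1.49 in experiment 1, 3.97 in experiment 2 and 2.50 in experiment 3. PR5K was steadier, at 2.98, 3.46 and 2.57. So were CRK24, at 1.47, 1.96 and 1.85, and AT5G38240, at 1.55, 1.77 and 2.02. On the scale of log2(normalized count + 1), the median ratio over the 7 genes was 0.63 in experiment 1, 1.28 in experiment 2 and 1.31 in experiment 3. Over all 531 higher genes it was 0.92, 1.13 and 1.16. Of the Col-0 libraries, replicate 1 was the highest for 4 of the 7 genes, beside 48.2% of the higher genes. The part of that library in the ratios of experiment 1 was not tested.

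**Figure D3:**
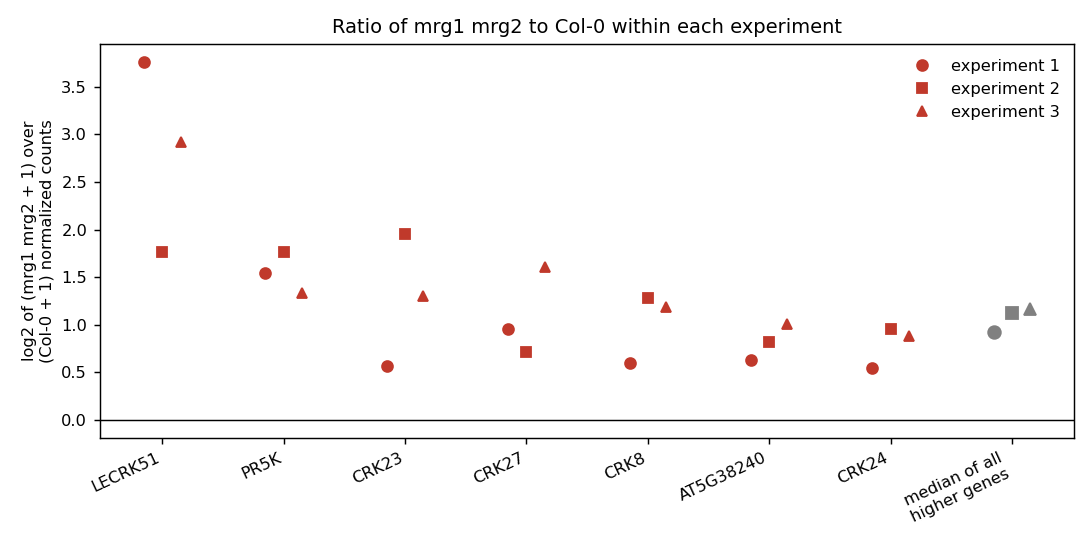
Log2 ratio of mrg1 mrg2 to Col-0 normalized counts, with 1 added to each, within each of the 3 experiments (shapes), for the 7 kinase genes and for the median of all 531 higher genes (grey). Every point is above 0; CRK8, CRK23, CRK24 and AT5G38240 have their lowest ratio in experiment 1.

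Profiles over the 6 libraries, as log2(normalized count + 1) centred on each gene's mean, were compared by their root mean square difference. Among the 7 genes the most alike pair was CRK24 and AT5G38240, which differed by 0.0723, and LECRK51 differed from the others by 0.845 to 1.24. The listed genes with the closest profiles were AT3G50840, a BTB/POZ domain gene, for CRK24 (0.0244), the ubiquitin ligase gene PUB26 for CRK8 (0.0634), the cytochrome P450 gene CYP71B19 for AT5G38240 (0.0654), and the endonuclease gene ENDO5 for CRK23 (0.0713). BIG4, a guanine-nucleotide exchange factor gene, was closest to CRK27 (0.0864), the glycosyltransferase gene AT1G01390 to PR5K (0.108) and AT1G35183 to LECRK51 (0.386). All listed genes were selected for the same genotype difference, which these profiles contain. With 5 in place of 1 added to the counts, 3 of the 7 closest genes stayed the same, those of CRK24, PR5K and AT5G38240.

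Most relatives of the 7 genes were not listed, and an unlisted gene has no value here, so it cannot be called unchanged. Of 42 cysteine-rich kinase genes, 4 were listed as higher (9.52%), 0 as lower and 38 in neither table; the 4 are the ones described here, so their share repeats the choice of genes. Of 45 genes that RefSeq names as L-type lectin receptor kinases, 3 were higher (6.67%) and 0 lower, beside 2.31% higher and 0.0913% lower among all genes tested; LECRK51, 1 of the 3, was picked for being higher. Besides LECRK51 these were LECRK43 (AT4G02410), with 1247 ± 198 normalized counts in mrg1 mrg2 and 807 ± 84.3 in Col-0, and LECRK21 (AT5G59260), with 37.7 ± 8.66 in mrg1 mrg2 and 8.31 ± 6.70 in Col-0 (SD, n = 3 each). Their ratios were 1.55 and 4.53. Of 7 PR5-like kinases and kinase genes at the PR5K locus, PR5K and AT5G38240 were higher (28.6%, beside 2.31% of all genes tested) and the other 5 were not listed. These 2 are among the picked genes, so this share too repeats the choice.

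Of the 5 wall-associated kinases WAK1 to WAK5, 0 were listed. Of 15 pattern recognition receptors and co-receptors, among them the flagellin receptor FLS2, the chitin receptor CERK1 and the co-receptor BAK1, 0 were listed. The same held for 11 genes that act below these receptors or are used as their readouts, such as the cytoplasmic kinase BIK1, the NADPH oxidase RBOHD and the readout gene FRK1. With 2.31% of all genes tested listed as higher and 0.0913% as lower, a count of 0 in lists of 5, 15 and 11 genes does not set them apart from other genes. By the authors' descriptions, 15 higher genes and 0 lower ones had both receptor and kinase in the text, a count made after the values were seen. Of all 552 listed genes only 21 were lower, and how many tested genes have such a description is not known here. Of these 15, 6 are described here; AT5G38240 is not among them. The other 9 had ratios from 1.55 to 6.59 and Col-0 means from 3.33 to 807 normalized counts. One of the 9, AT4G11521, carries the name CRK34 in the table, with 144 ± 16.6 normalized counts in mrg1 mrg2 and 67.1 ± 10.1 in Col-0 (SD, n = 3 each). RefSeq gives the symbol CRK34 to AT4G11530, which starts 18 bases beyond the end of AT4G11521 and was not listed. The 42 cysteine-rich kinase genes counted above include AT4G11530 and not AT4G11521. The count of 4 higher among them therefore leaves AT4G11521 out.

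Of the 4 cysteine-rich genes, 3 lie in a tandem array of CRK genes. From CRK5 to CRK24, 74.2 kb of chromosome 4 hold 21 protein-coding genes, 18 of them with a CRK symbol. Of the 18, 3 were listed as higher, namely CRK8, CRK23 and CRK24, beside 2.31% of all genes tested. These 3 are among the picked genes, so this share too repeats the choice. CRK23 and CRK24 are neighbours at the end of the array. CRK8 lies 51.2 kb from CRK23 with 17 annotated genes between them, none listed, and CRK27 lies outside the array, 808 kb from CRK8. On chromosome 5, AT5G38240 and PR5K lie on the same strand, 13.7 kb apart, with 6 annotated genes between them, including the kinase genes AT5G38250 and AT5G38260, which were not listed. Among the 5 annotated genes on each side of each of the 7 genes, CRK23 and CRK24 were the only listed ones, as neighbours of each other. Both are picked genes, so this count repeats the choice as well. Of all genes tested, 2.31% were listed as higher.

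**Figure D4:**
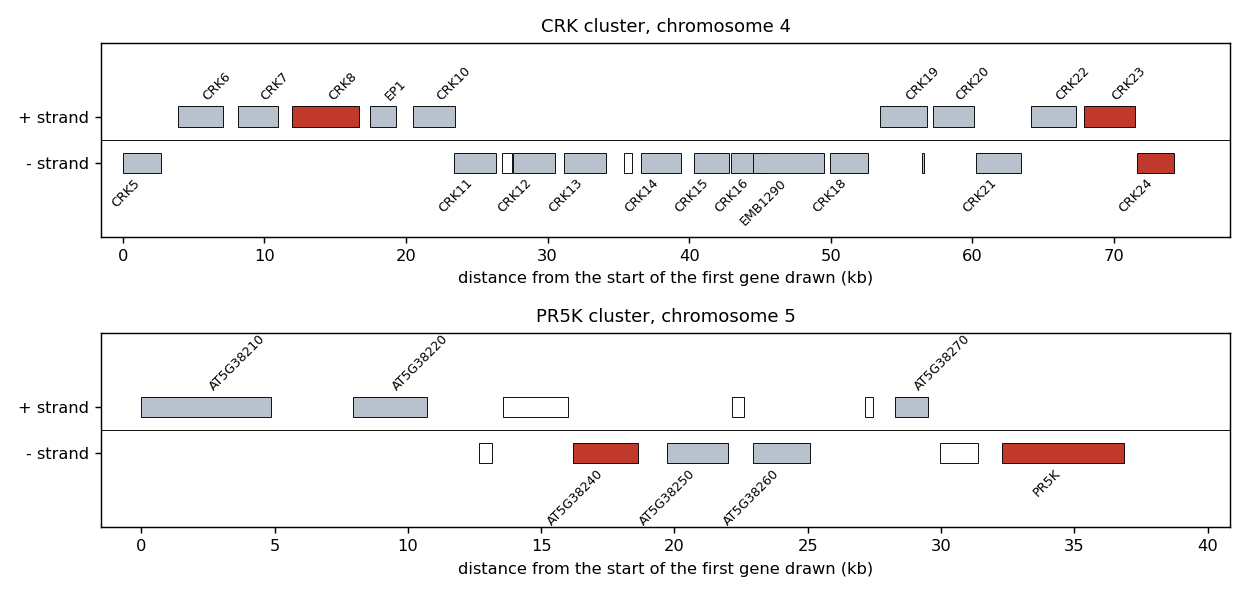
Gene maps of the CRK array on chromosome 4 and of the PR5K locus on chromosome 5, by strand, with distance in kb from the start of the first gene drawn. Red boxes are genes listed as higher in mrg1 mrg2, grey boxes are protein-coding genes in neither table, and white boxes are pseudogenes and noncoding RNA genes; 3 CRK genes are red in the upper map, and PR5K and AT5G38240 are red in the lower one.

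Close relatives can share reads of 50 bases. All 50-base windows of the CRK27, LECRK51 and PR5K transcripts were found in no other annotated transcript (100% unique). The share was 99.1% for CRK24, 99.0% for AT5G38240, whose 24 shared windows all matched AT5G38250, and 97.9% for CRK23. For CRK8 it was 85.8%, and 551 of its 4038 windows also occur in CRK6. The count of CRK8 is therefore uncertain, since how such reads were counted is not known. Unique sequence does not settle reads that reach into a neighbouring gene. The annotated end of CRK27 lies 1 base from LpxD2, and that of LECRK51 47 bases from AT1G70100, neither of them listed. How reads near those ends were counted is not known either.

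The proteins fall into groups by sequence. CRK8 and CRK23 were 59.3% identical over 639 aligned residues and CRK23 and CRK24 57.6% over 498, while CRK27 was 43.8% to 50.1% identical to the other 3. PR5K and AT5G38240 were 57.9% identical over 359 residues, and every pair across these groups and with LECRK51 was between 32.9% and 38.8% identical. The catalytic loop motif HRD, followed by I, L, V or M and then K, was found in the 4 cysteine-rich kinases and LECRK51. It was not found in PR5K and AT5G38240, which held the same motif with another residue in place of R. Proteins were chosen by this looser form, so all 7 hold it. All 7 also held the DFG motif of the activation loop. Many plant immune receptor kinases lack the arginine of the HRD motif, as background. The cysteine motif of DUF26, in which 3 cysteines are spaced by 8 and then 2 residues, was found 3 times in CRK23, 2 times in CRK8, and 1 time each in CRK24 and CRK27. It was found 0 times in LECRK51, PR5K and AT5G38240. CRK24 was the shortest protein, with 528 residues, and CRK23 the longest, with 830.

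The promoters at the annotated starts of all 7 genes held a W box, the DNA element bound by WRKY transcription factors of the defence response. The core TTGAC, searched on both strands from 250 bases before to 50 bases after each annotated gene start, was present in 7 of 7, against 50.5% of 27443 protein-coding genes and 56.1% of 506 higher ones. The longer forms TTGACC and TTGACT were also present in 7 of 7, against 32.4% of all promoters and 41.1% of those of higher genes. Relatives of these genes also held it often. The core was in 27 of 37 promoters (73.0%) of the cysteine-rich kinases other than these 4, in 31 of 44 (70.5%) of the other L-type lectin kinases and in 13 of 15 (86.7%) of the pattern recognition receptors, of which none was listed. For the longer forms the shares were lower: among the cysteine-rich kinases other than these 4 with a promoter sequence, 22 of 37 (59.5%) held TTGACC or TTGACT, as did 26 of 44 (59.1%) of the other L-type lectin kinases. The longer forms were in 10 of 15 promoters of the pattern recognition receptors and in 4 of 6 of the root markers. A match is a run of letters and does not show that a factor binds there. RefSeq marks the genes CRK8, CRK27, LECRK51 and AT5G38240 as partial. Which end is incomplete was not read, so the bases before their annotated starts may be transcribed. For CRK8, the same window placed before the transcript with the kinase motif held 0 matches, which leaves 6 of 7.

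The sequences before the 7 starts are printed to show where these W box matches lie. They are from RefSeq (TAIR10.1), 5′ to 3′ on the strand of each gene and end at the base before the annotated start. Capitals mark TTGACC or TTGACT, or on the other strand GGTCAA or AGTCAA. The run for CRK24 stops after 146 bases, where the next gene begins; the others have 250.
CRK8 (chr4:12129235-12129484, plus strand): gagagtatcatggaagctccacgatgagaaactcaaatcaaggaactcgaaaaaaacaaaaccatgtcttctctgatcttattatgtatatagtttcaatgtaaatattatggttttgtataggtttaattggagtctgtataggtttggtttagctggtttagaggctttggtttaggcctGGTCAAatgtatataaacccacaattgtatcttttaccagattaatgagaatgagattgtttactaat
CRK23 (chr4:12185119-12185368, plus strand): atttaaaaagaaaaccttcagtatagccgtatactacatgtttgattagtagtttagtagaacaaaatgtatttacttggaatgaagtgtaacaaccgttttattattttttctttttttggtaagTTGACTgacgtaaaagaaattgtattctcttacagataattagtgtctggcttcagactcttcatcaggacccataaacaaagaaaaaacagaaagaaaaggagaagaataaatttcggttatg
CRK24 (chr4:12191705-12191850, minus strand): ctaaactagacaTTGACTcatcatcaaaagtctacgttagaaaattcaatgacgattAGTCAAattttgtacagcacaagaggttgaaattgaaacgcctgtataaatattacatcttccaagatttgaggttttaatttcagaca
CRK27 (chr4:11321680-11321929, minus strand): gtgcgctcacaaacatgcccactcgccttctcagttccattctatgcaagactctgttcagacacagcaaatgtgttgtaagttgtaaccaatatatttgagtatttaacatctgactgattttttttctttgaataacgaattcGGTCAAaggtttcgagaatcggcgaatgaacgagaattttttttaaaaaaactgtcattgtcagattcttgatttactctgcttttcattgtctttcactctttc
LECRK51 (chr1:26408344-26408593, minus strand): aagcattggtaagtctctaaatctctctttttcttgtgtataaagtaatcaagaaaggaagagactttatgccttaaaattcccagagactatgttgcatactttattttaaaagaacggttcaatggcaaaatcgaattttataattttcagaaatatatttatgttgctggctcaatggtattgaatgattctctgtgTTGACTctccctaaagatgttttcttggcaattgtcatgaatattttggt
PR5K (chr5:15297612-15297861, minus strand): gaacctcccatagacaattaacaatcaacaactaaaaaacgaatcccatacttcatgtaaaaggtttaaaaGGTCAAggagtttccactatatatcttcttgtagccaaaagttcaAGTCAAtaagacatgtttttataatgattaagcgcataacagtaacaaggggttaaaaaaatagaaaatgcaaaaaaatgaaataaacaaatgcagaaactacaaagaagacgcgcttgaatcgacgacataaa
AT5G38240 (chr5:15279385-15279634, minus strand): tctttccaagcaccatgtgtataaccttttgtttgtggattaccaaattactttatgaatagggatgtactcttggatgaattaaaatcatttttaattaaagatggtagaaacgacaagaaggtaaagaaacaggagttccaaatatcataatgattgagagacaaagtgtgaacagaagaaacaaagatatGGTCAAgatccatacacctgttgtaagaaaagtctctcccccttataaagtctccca

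Counted from the annotated start, with -1 the base before it, the first capital letter is at -50 in LECRK51, -57 in AT5G38240, -68 in CRK8, -105 in CRK27 and -124 in CRK23. CRK24 has capitals from -134 and from -89, and PR5K from -179 and from -134. The matches lie on the strand of the gene in CRK23 and LECRK51, on both strands in CRK24, and on the opposite strand in CRK8, CRK27, PR5K and AT5G38240. PR5K, with a 2.98-fold ratio, and CRK24, with 1.74, were the genes with 2 matches upstream.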

How the data were processed

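The libraries were stranded and depleted of ribosomal RNA, and gave single-end reads of 50 bases, per the labels' protocols. Per the submitters' processing notes, TAIR10 was the build and DESeq2 a tool; no source used here names the aligner or the counting tool. The authors deposited raw counts of listed genes only, in 2 tables, as whole reads per gene and library. Each row also has the authors' p-value and adjusted p-value and their log2 fold change of the mutant over wild type, per the file headers.

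Size factors (0.955 to 1.08) were recovered by matching ratios of scaled counts to the deposited log2 fold changes of 540 genes (50 reads or more) (SciPy 1.17.1; residual SD 0.00187 on the log2 scale). Normalized counts are raw counts divided by them. Ranks linking p to adjusted p gave 22995 genes tested. Only listed genes have values, so no test over all genes was made, depth is unknown, and intervals (exact, conditional on the summed reads, 95%) cover counting error only. Listed genes were also fitted with edgeR 4.0.16 and DESeq2 1.42.0 (R 4.3.3) under these size factors, used for their fold changes only. The code for size factors and fits was run on simulated data in which most genes did not change, unlike the listed genes. That run checks the code and not the scaling of these data. Over 349 listed genes with at least 50 normalized counts in every library, same-numbered libraries deviated together (r = 0.33, 0.61 and 0.33). Other pairs gave -0.46 to 0.07. Deviations were taken from the mean of each genotype's 3 libraries, so a high r for some pairs lowers the others. The numbers were taken as pairs on this limited support. Chi-square per degree of freedom between replicates was 10.7 to 27.2, so no library was a repeat of another.

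Of 552 listed loci, 549 matched RefSeq TAIR10.1, with the same strand in all 549. Proteins were translated from the RefSeq coding sequence and aligned locally (Biopython 1.88, BLOSUM62). The longest with a kinase catalytic motif was taken, where this motif is H, any residue, D, then I, L, V or M, then K. LECRK51 has no RefSeq symbol and was found by locus. Genes given with values are the 7 genes, listed members of the gene lists, listed genes among the 5 on each side, the closest profile of each gene, and MRG2 as a check of the mutant; AT4G11521 was added after its values were seen. Unlisted genes are named without values, as examples of a list, neighbours or genes that share sequence. The 7 genes and the lists were chosen with earlier results of these data known. The forms TTGACC and TTGACT, the 250-base window and the second CRK8 window were added later.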

Additional observations from a re-analysis of the deposited data

How the results depend on the processing

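Each of the 7 ratios was recomputed under 12 alternatives. Of these 84 values, 77 moved by less than the SD of the ratio between experiments. The other 7 came from median-of-ratios size factors over the listed genes, which centre a list in which 531 of 552 genes are higher: this shifted the median log2 ratio of all higher genes by -1.01, to 0.069. The ratio was then -0.21 for CRK24 and -0.19 for AT5G38240, the median over the 7 genes was 0.074, and 1 of the 7 genes had libraries that did not overlap, beside 111 of the 531 higher genes; by construction these factors remove a change that most listed genes share. The number of genes without overlap was 7 with equal size factors. It was also 7 with each library left out in turn. That was fixed in advance, since leaving out a library cannot create an overlap. The median log2 ratio of the 7 genes was 0.95 to 1.24 with each library left out, and kept within the spread between experiments with equal size factors and over the 6 genes with at least 10 normalized counts in Col-0. With the replicate block, edgeR gave a median of 1.09 and the mean within-experiment ratio a median of 1.09, and the block changed no direction. Without the block, edgeR and DESeq2 gave 1.09 each. All these fits used the size factors recovered from the deposited fold changes, so they do not check the scaling. Their closeness to the main ratio was largely built in. For LECRK51 the mean within-experiment ratio, with 1 added to the counts, was 2.81 on the log2 scale, against 3.43. The edgeR fit with the replicate block gave 3.32 for this gene. The cause of the difference was not tested.

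The reads limit LECRK51 the most, with 4 reads in Col-0 in all. Windows of 36 bases in place of 50 lowered the unique share of CRK8 to 81.8%, of CRK23 to 94.6% and of AT5G38240 to 96.7%.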
